A study of Mus musculus with 9 samples.

Results

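The ephrin, Slit-Robo, netrin and Flrt guidance systems were followed through 37 genes in sorted cells of the mouse embryonic cortex, out of 78275 gene IDs counted in 9 RNA-seq libraries. The genes were taken by family name, with earlier results of these data known, and not every gene of these families is among them. They are 8 EphA and 5 EphB receptors, 5 ephrin-A and 3 ephrin-B ligands. The rest are 3 Slits, 3 Robos, 2 netrins, Dcc, 4 Unc5 receptors and 3 Flrt genes. Of the 37, 34 passed the filter on low counts, which kept 27773 genes in all, and Epha8, Slit3 and Robo3 did not. All embryos were wild type and received, by in utero electroporation at E14.5, a plasmid carrying mCherry and a hairpin built into a microRNA backbone. The hairpin was a scrambled control (sh-NT), or was directed against Gpc4 (sh-Gpc4) or Gpc2 (sh-Gpc2), which encode lipid-anchored heparan sulfate proteoglycans of the glypican family. Cells positive for mCherry were sorted 48 h later, at E16.5, and each group has 3 libraries. Libraries are named by the numbers of the count table's columns, which run 1, 2, 4 in both sh-NT and sh-Gpc2 but 1, 3, 4 in sh-Gpc4. No label says whether libraries came from separate embryos or litters, so a p-value here reflects the spread of these libraries, which may be technical.

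Eph receptors are tyrosine kinases that bind ephrins on neighbouring cells, and signals run both into the receptor-bearing cell and into the ephrin-bearing one. Slits are secreted ligands of Robo receptors, netrins are ligands of Dcc and Unc5 receptors, and Flrt proteins are adhesion molecules that bind Unc5 receptors and latrophilins on other cells. In the developing cortex these systems are known for steering axons, for sorting cells at borders and for setting the spread and pace of migrating neurons. Slits bind heparan sulfate, the sugar that glypicans carry.

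Libraries held 48045603 to 66538437 counted reads, of which 161983 to 239523 fell on the 37 genes. Levels are given in CPM, read counts scaled to library size with TMM factors, and 0 reads in a library allow a level of up to 0.0442 to 0.061 CPM (3 reads, counting error only). Gpc4 was at 165, 188 and 175 CPM in sh-NT, against 137, 99.9 and 129 CPM in sh-Gpc4, which is -0.53 (SE 0.21) as a log2 fold change (adjusted p 0.488 by the quasi-likelihood test of edgeR). Gpc2 was at 200, 207 and 161 CPM in sh-NT, 167, 145 and 79.6 in sh-Gpc2 and 168, 70.3 and 96.6 in sh-Gpc4. Its sh-Gpc2 libraries overlapped with the controls, with a log2 fold change of -0.54 (adjusted p 0.968 in edgeR), and its mean was lower in sh-Gpc4, at -0.76 (SE 0.33), than in the group directed against it. The labels describe the sample as progenitors and neurons of the cortex, and markers of radial glia (1719 to 3078 CPM summed over 10 genes in each library), intermediate progenitors (670 to 729 CPM, 6 genes) and excitatory neurons (4181 to 5254 CPM, 10 genes, Unc5d among them) were high in all 9. Microglial markers summed to 480 to 1781 CPM, and those of the choroid plexus to at most 0.758 CPM. Of the microglial markers, 9 were positive and 1 negative in sh-Gpc4 (median log2 fold change 0.40), and 7 positive and 3 negative in sh-Gpc2 (0.23). Erythroid markers summed to 54.4 to 124 CPM, with 3 positive and 2 negative in sh-Gpc4 and 5 positive in sh-Gpc2. Markers of GABAergic and ventral cells summed to 56.8, 13.8 and 11.0 CPM in sh-NT libraries 1, 2 and 4. In sh-Gpc4 they summed to 7.77 to 10.5 CPM, below every control, and in sh-Gpc2 to 13.5 to 16.2 CPM. All 8 tested were negative in both knockdown groups (median log2 fold change -2.28 in sh-Gpc4 and -1.49 in sh-Gpc2). Only sh-NT library 1 had a sum above every sh-Gpc2 library, and the sum of sh-NT library 4 was below all of them. Markers of oligodendrocyte precursors summed to 5.41 to 16.3 CPM in sh-NT, 1.27 to 4.91 in sh-Gpc4 and 4.64 to 14.475 in sh-Gpc2. The part of these cell types in the members' values was not tested. In a principal component analysis of genes above 3 log2 CPM, the first component held 71.6% of the variance and set sh-Gpc4 library 3 (score 46.7) and sh-Gpc2 library 4 (36.6) apart, then sh-Gpc4 library 4 (15.8). The other 6 libraries scored from -25.8 to -5.71. For Flrt2, Efnb1, Efnb3, Ephb4, Ephb6, Slit1, Slit2 and Robo1, values without the 2 most distant libraries are given too. For Epha2, Ephb2, Ephb3, Efna3 and Unc5a, in which these 2 libraries were the lowest, such values are not given.

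The sequences of 4 members show how far coding base composition differs within the set. Each is a stretch of 90 coding bases of the longest coding transcript in GENCODE M21 whose GC content is closest to that of the whole coding sequence, with G and C in capitals. Flrt2 and Robo2 stand for members of low GC content, and Efnb1 and Efnb3 for members of high GC content. Over their whole coding sequences, GC content is 49.6% in Flrt2, 49.6% in Robo2, 57.4% in Efnb1 and 62.4% in Efnb3.
Flrt2: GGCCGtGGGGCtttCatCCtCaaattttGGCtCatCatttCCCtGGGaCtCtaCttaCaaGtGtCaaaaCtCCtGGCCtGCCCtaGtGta
Robo2: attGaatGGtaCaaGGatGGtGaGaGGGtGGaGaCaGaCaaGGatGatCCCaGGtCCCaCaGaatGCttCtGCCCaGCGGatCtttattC
Efnb1: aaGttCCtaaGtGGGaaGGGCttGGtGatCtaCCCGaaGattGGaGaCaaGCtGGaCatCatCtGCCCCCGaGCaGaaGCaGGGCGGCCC
Efnb3: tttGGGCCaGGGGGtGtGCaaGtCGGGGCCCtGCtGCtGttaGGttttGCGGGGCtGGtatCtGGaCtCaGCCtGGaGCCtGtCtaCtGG

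Where members are sorted by GC content below, it is that of the longest transcript, untranslated parts included, which is not the coding value: it is 41.75% for Flrt2, 42.44% for Robo2, 57.65% for Efnb3 and 58.20% for Efnb1.

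Control cells expressed these systems unevenly, with a few receptors, the adhesion gene Flrt3 and 1 ephrin well above most others. Per kilobase of merged exons, the highest levels in sh-NT (mean ± SD, n = 3) were those of Epha3, an ephrin-A receptor, at 71.2 ± 4.40 CPM per kb and of Efnb1, a transmembrane ephrin, at 69.5 ± 6.43 CPM per kb. Flrt3 followed at 50.5 ± 6.91, Robo2 at 45.8 ± 3.64, Epha4 at 40.0 ± 4.66, Unc5d at 32.9 ± 1.84 and Epha5 at 28.2 ± 2.25 CPM per kb. The means of Epha3 and Efnb1, of Flrt3 and Robo2, and of Efnb2 (18.2 ± 2.41) and Ephb6 (18.2 ± 1.35) lay within an SD of each other. The order below Epha3 depends on the length used, since per kilobase of the longest transcript Robo2 (90.5 CPM per kb) was above Efnb1 (73.7) and Epha5 (64.4) above Flrt3 (61.8). Ligands of the other systems were low: Slit2 was at 1.94 ± 0.148, Slit1 at 0.682 ± 0.288, Ntn4 at 0.370 ± 0.0196 and Ntn1 at 0.107 ± 0.0527 CPM per kb. Dcc, the attractive netrin receptor, was at 5.13 ± 0.0954 CPM per kb, far above either netrin. Epha8, Slit3 and Robo3 held 0 to 5, 0 to 5 and 0 to 7 reads in a library.

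**Figure D1:**
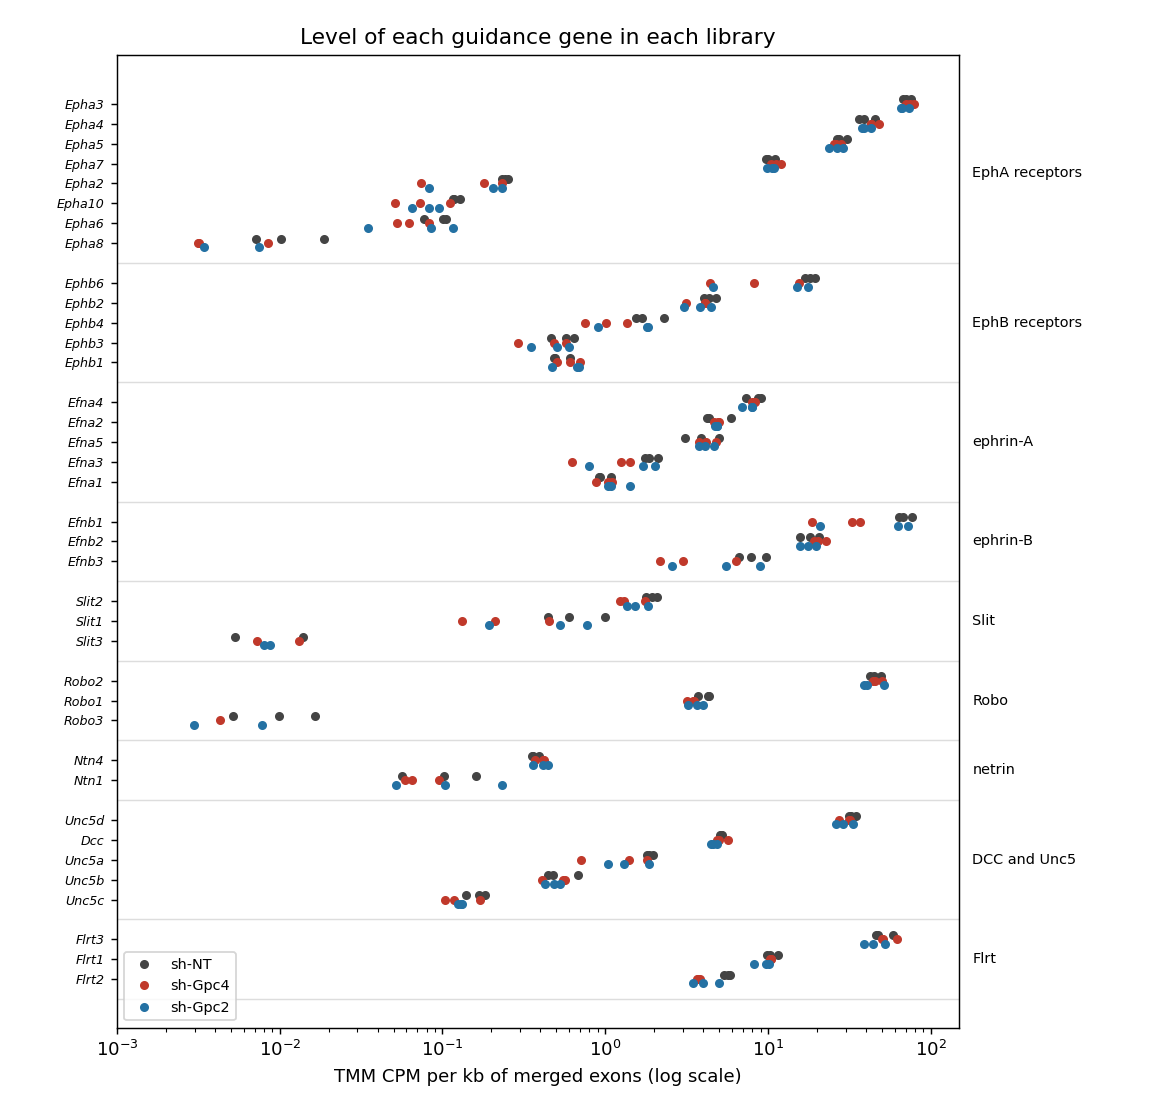
Level of each of the 37 guidance genes in each library, in TMM-scaled CPM per kilobase of merged exons on a log axis, by family (1 point per library, colour for the group; libraries with 0 reads are not drawn). Epha3, Efnb1, Flrt3 and Robo2 sit at the top, and Epha8, Slit3 and Robo3 at the bottom.

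Against sh-NT, none of the 34 members passed an adjusted p of 0.05 in sh-Gpc4 by edgeR's quasi-likelihood test with Benjamini-Hochberg adjustment (smallest 0.488), and neither did any other gene (0% of 27773 tested). The 8 members with the smallest p had lower means: Flrt2, a pair of B-type ephrins (Efnb1, Efnb3), Ephb4, Epha10, Slit1, Slit2 and Robo1. These members (23.5% of 34) had an unadjusted p under 0.05, against 9.57% of all genes tested in either direction and 6.01% in the lower direction. In 11 members (32.4%) every sh-Gpc4 library lay below every sh-NT library, against 13.2% of all genes. These 11 were Efna3, Efnb1, Efnb3, Epha10, Epha2, Ephb4, Ephb6, Flrt2, Robo1, Slit2 and Unc5a. No member lay wholly above, against 10.8% of all genes. Of the 34, 22 (64.7%) had a negative log2 fold change, against 47.2% of all genes. Their median log2 fold change was -0.17, beside 0.02 over all genes tested. It was -0.10 without the 2 most distant libraries and -0.086 without sh-Gpc4 library 3 alone. Over other sets of members, it was -0.045 for the 22 tested where a gene had to exceed 5 CPM in 3 libraries or more. With no filter it was -0.215 over 37 members. The DESeq2 Wald test called 46 genes (0.211% of 21845), of which 1 was a member, Flrt2. In limma voom with sample weights, 0 members passed and 15 had an unadjusted p under 0.05, against 32.4% of all genes.

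**Figure D2:**
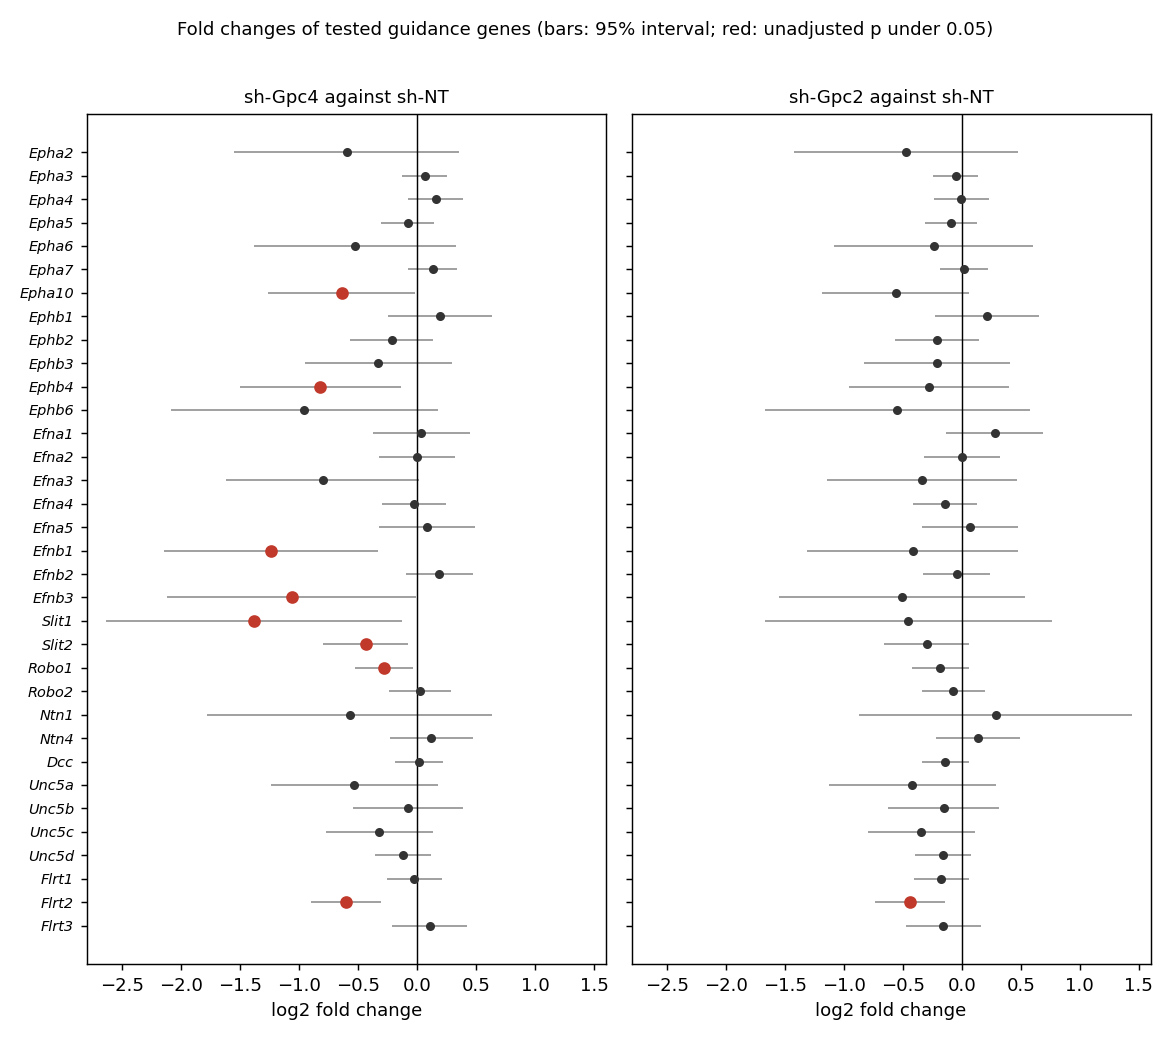
Log2 fold change of the 34 tested members in sh-Gpc4 (left) and sh-Gpc2 (right) against sh-NT from edgeR's fit, with 95% intervals as bars and red points at an unadjusted p under 0.05. The 8 red points on the left all lie below 0, and Flrt2 is the 1 red point on the right.

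Flrt2 encodes a single-pass adhesion protein with leucine-rich repeats that repels cells bearing Unc5 receptors and is known from migrating cortical neurons. Its level was 41.3, 43.9 and 45.4 CPM in sh-NT libraries 1, 2 and 4, 28.1, 28.6 and 29.5 CPM in sh-Gpc4 libraries 1, 3 and 4, and 38.8, 30.9 and 26.9 CPM in sh-Gpc2 libraries 1, 2 and 4. All 6 knockdown libraries lay below all 3 controls, and the sh-Gpc4 libraries lay close together. In sh-Gpc4 this is a ratio of 0.660, or -0.60 as a log2 fold change with an SE of 0.13 and a 95% interval of -0.90 to -0.30. Its unadjusted p was 0.00127 and its adjusted p 0.488 in edgeR's quasi-likelihood test, while DESeq2 gave an adjusted p of 0.0375 and limma voom 0.0531. Over all 18 alternatives the fold change stayed negative, from -0.72 to -0.55, and adjusted p ran from 0.0375 to 0.963. Without the 2 most distant libraries it was -0.60, and with the GC trend of each library removed it was -0.72. The gene (ENSMUSG00000047414) lies on chromosome 12, from 95692226 to 95785215 on the plus strand of GRCm38.

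The 250 bases before the RefSeq start of Flrt2 (GRCm38.p6, chr12:95691976-95692225, plus strand) are shown because this member had the smallest p of the 34 against sh-NT in both knockdown groups. The capitals mark CACGTG, a palindrome, so both strands read alike. It is found in 3 of 36 such windows of the 31 members that matched RefSeq (8.3%; Epha8, Flrt2 and Robo2) and in 6.0% of all 32851 windows.
Flrt2 upstream: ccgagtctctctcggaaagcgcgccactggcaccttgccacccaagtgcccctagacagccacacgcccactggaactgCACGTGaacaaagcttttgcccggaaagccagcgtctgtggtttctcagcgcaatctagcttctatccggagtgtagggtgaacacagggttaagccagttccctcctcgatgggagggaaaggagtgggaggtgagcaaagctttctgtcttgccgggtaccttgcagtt
Over the members' windows, GGGCGG or its reverse complement CCGCCC was found in 66.7%, against 32.7% of all windows, and median GC content was 65.2% against 52.4%. The Flrt2 window has no GGGCGG on either strand.

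The other Flrt genes had smaller differences. Flrt3 was at 229, 224 and 285 CPM in sh-NT, 248, 301 and 245 in sh-Gpc4 and 215, 190 and 257 in sh-Gpc2. The groups overlapped, with log2 fold changes of 0.11 (95% interval -0.21 to 0.43) in sh-Gpc4 and -0.16 (-0.48 to 0.16) in sh-Gpc2. The first of these turned negative under 3 alternatives. Flrt1 had log2 fold changes of -0.02 (-0.26 to 0.21) and -0.17 (-0.41 to 0.06).

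Efnb1 is an X-linked transmembrane ligand that signals back into the cell that carries it. It was at 221, 265 and 234 CPM in sh-NT, 127, 64.3 and 114 in sh-Gpc4 and 251, 216 and 72.1 in sh-Gpc2. All sh-Gpc4 libraries lay below all controls, as did sh-Gpc2 library 4, while the other sh-Gpc2 libraries were near the controls. Efnb1 thus had a log2 fold change of -1.24 in sh-Gpc4 (SE 0.40, 95% interval -2.15 to -0.33), with an unadjusted p of 0.0125 and an adjusted p of 0.488 in edgeR's test. It was -1.01 without the 2 most distant libraries, with an SE of 0.12 and an adjusted p of 0.0827, and -0.94 with the GC trend removed. In sh-Gpc2 it was -0.42 (SE 0.40), and -0.04 without sh-Gpc2 library 4.

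Efnb3, known as a midline signal of the spinal cord that repels corticospinal axons, was at 24.9, 30.9 and 21.03 CPM in sh-NT, 20.4, 6.93 and 9.57 in sh-Gpc4 and 28.2, 17.7 and 8.20 in sh-Gpc2. The highest sh-Gpc4 library was just under the lowest control, and the lowest values of all were in sh-Gpc4 library 3 and sh-Gpc2 library 4. Efnb3 had a log2 fold change in sh-Gpc4 of -1.06 (SE 0.47, unadjusted p 0.0484, adjusted p 0.488 in edgeR's test), and ran from -1.64 to -0.77 when single libraries were left out. Without the 2 most distant libraries it was -0.79. Efnb2, the third ephrin-B, ran from 109 to 142 CPM in sh-NT and from 131 to 156 CPM in sh-Gpc4, with a log2 fold change of 0.19 (95% interval -0.10 to 0.47). The ephrin-A ligands, which sit in the membrane by a lipid anchor, were lower in level. Efna3 was at 4.30, 5.11 and 4.53 CPM in sh-NT against 3.04, 1.51 and 3.46 CPM in sh-Gpc4, groups that did not overlap, with a log2 fold change of -0.80 (SE 0.36, unadjusted p 0.0540 in edgeR's test). It shares 344 exon bases with a gene on the opposite strand, Gm15998, and whether counting used strand is not known. Efna4, the ephrin-A with the highest level per length, was at 14.4, 13.9 and 11.8 CPM in sh-NT, 12.8, 13.2 and 13.4 in sh-Gpc4 and 12.7, 12.7 and 11.0 in sh-Gpc2. All sh-Gpc4 libraries of Efna4 were above all sh-Gpc2 libraries, by little, and both groups overlapped with the controls. Efna1, Efna2 and Efna5 had log2 fold changes of 0.04, 0.00 and 0.09 in sh-Gpc4.

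The abundant EphA receptors differed little between groups. Epha3 was at 612, 584 and 660 CPM in sh-NT, 651, 682 and 609 in sh-Gpc4 and 639, 573 and 577 in sh-Gpc2. The 3 groups covered much the same range. Its log2 fold change was 0.07 (95% interval -0.13 to 0.26) in sh-Gpc4 and -0.05 (-0.25 to 0.14) in sh-Gpc2. Epha4, which binds both classes of ephrin, had 0.16 (-0.08 to 0.39) and -0.00 (-0.24 to 0.23), Epha5 had -0.08 (-0.30 to 0.14) and -0.09 (-0.32 to 0.13), and Epha7 had 0.13 (-0.07 to 0.34) and 0.02 (-0.19 to 0.22). Among scarce EphA receptors, Epha10, which lacks a functional kinase domain, was at 0.837, 0.844 and 0.920 CPM in sh-NT, 0.799, 0.525 and 0.368 in sh-Gpc4 and 0.689, 0.597 and 0.468 in sh-Gpc2. Each knockdown library was below each control, sh-Gpc4 library 1 by little. In log2 fold change Epha10 was at -0.64 (SE 0.28, unadjusted p 0.0459 in edgeR's test) in sh-Gpc4 and -0.56 (SE 0.28) in sh-Gpc2. The sh-Gpc4 value was -0.27 with the GC trend removed and -0.40 without sh-Gpc4 library 4. Epha10 shares 79 exon bases with 1700125G02Rik on the opposite strand. Such overlap with a gene on the opposite strand was also found in Efna4 (168 bases), Ephb1 (152), Unc5c (118), Epha6 (107), Unc5a (34) and Ephb4 (33). Epha2 and Epha6 had log2 fold changes of -0.60 (SE 0.42) and -0.53 (SE 0.38) in sh-Gpc4 at levels of 0.280 to 1.18 CPM in those 2 groups.

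EphB receptors bind mainly the transmembrane ephrins. Ephb6, a member without kinase activity, was at 68.4, 73.6 and 63.4 CPM in sh-NT, 58.3, 16.53 and 31.1 in sh-Gpc4 and 66.3, 56.7 and 17.4 in sh-Gpc2. The lowest values were in sh-Gpc4 library 3 and sh-Gpc2 library 4 while sh-Gpc4 library 1 lay just under the controls. Ephb6 had a log2 fold change of -0.96 (SE 0.50, unadjusted p 0.0884 in edgeR's test) in sh-Gpc4 and -0.55 (SE 0.50) in sh-Gpc2, and these were -0.61 without sh-Gpc4 library 3 and -0.15 without sh-Gpc2 library 4. The sh-Gpc4 value was -0.63 without both. Ephb4, the ephrin-B2 receptor of veins, was at 7.82, 10.6 and 7.16 CPM in sh-NT, 6.33, 3.49 and 4.71 in sh-Gpc4 and 8.39, 8.46 and 4.21 in sh-Gpc2. The sh-Gpc4 libraries were all below the controls, and so was sh-Gpc2 library 4. Its log2 fold change was -0.82 (SE 0.30, unadjusted p 0.0238, adjusted p 0.488 in edgeR's test) in sh-Gpc4, -0.64 without the 2 most distant libraries and -0.50 with the GC trend removed. Of vessel cells, 7 mural markers summed to 20.3 to 27.6 CPM in sh-NT, 10.2 to 14.0 in sh-Gpc4 and 8.61 to 20.9 in sh-Gpc2. The sh-Gpc4 sums lay below the controls and the sh-Gpc2 sums overlapped with them. All 7 were negative in both knockdown groups and none was at 0 in all libraries. For 8 endothelial markers the sums were 4.14 to 10.1, 5.45 to 7.92 and 5.73 to 7.82 CPM, both knockdown groups lying within the range of the controls. Of the 6 tested, 5 were negative in each knockdown group (median log2 fold change -1.17 in sh-Gpc4 and -0.89 in sh-Gpc2). The part of vessel cells in the Ephb4 values was not tested. In sorted bulk samples, fewer cells of a type and less RNA per cell cannot be told apart. Ephb1, Ephb2 and Ephb3 had log2 fold changes of 0.20 (SE 0.20), -0.21 (SE 0.16) and -0.33 (SE 0.28) in sh-Gpc4.

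In the Slit-Robo system, both measurable ligands and 1 of 2 measurable receptors had lower means and an unadjusted p under 0.05 in sh-Gpc4. Over all genes tested, 6.01% did so, and the adjusted p of each of these members was 0.488 in edgeR's test. Of 14 other genes of Slit and Robo signalling, 6 had a positive and 8 a negative log2 fold change, with a median of -0.0098. Slit2 was at 45.5, 53.0 and 49.2 CPM in sh-NT, 44.7, 31.3 and 33.3 in sh-Gpc4 and 46.7, 38.9 and 34.5 in sh-Gpc2. The sh-Gpc4 libraries lay below the controls, library 1 only just, and sh-Gpc2 overlapped with them. The log2 fold change in sh-Gpc4 was -0.43 (SE 0.16, 95% interval -0.79 to -0.07), with an unadjusted p of 0.0230 and an adjusted p of 0.488 in edgeR's test, and it was -0.35 without the 2 most distant libraries. Slit1 was at 3.54, 5.94 and 2.64 CPM in sh-NT, 2.66, 0.780 and 1.25 in sh-Gpc4 and 3.11, 4.57 and 1.14 in sh-Gpc2. The groups overlapped, with the low values again in sh-Gpc4 libraries 3 and 4 and sh-Gpc2 library 4. Its log2 fold change in sh-Gpc4 was -1.39 (SE 0.56, unadjusted p 0.0338 in edgeR's test), -0.996 without sh-NT library 2 and -1.07 without the 2 most distant libraries.

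Robo1 was at 70.5, 60.9 and 72.1 CPM in sh-NT, 57.6, 52.8 and 57.4 in sh-Gpc4 and 65.7, 60.7 and 53.1 in sh-Gpc2. The gap between the sh-Gpc4 libraries and the lowest control was small. Its log2 fold change in sh-Gpc4 was -0.28 (SE 0.11, 95% interval -0.52 to -0.03), with an unadjusted p of 0.030 and an adjusted p of 0.488 in edgeR's test. Without the 2 most distant libraries it was -0.25. Robo2, the more abundant Slit receptor here, was at 845, 723 and 765 CPM in sh-NT, 851, 776 and 750 in sh-Gpc4 and 872, 661 and 686 in sh-Gpc2. Its values overlapped fully, with log2 fold changes of 0.03 (-0.24 to 0.29) and -0.07 (-0.34 to 0.19), and the sign depended on the alternative.

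Netrins were scarce, and their abundant receptors Dcc and Unc5d differed little between groups. Ntn4, a laminin-binding netrin, was at 1.35, 1.33 and 1.47 CPM in sh-NT, 1.38, 1.56 and 1.58 in sh-Gpc4 and 1.55, 1.36 and 1.67 in sh-Gpc2. Its log2 fold changes were 0.12 (SE 0.16) and 0.14 (SE 0.16), and the groups overlapped. Ntn1, the classical ligand of Dcc, ran from 0.326 to 1.45 CPM over the libraries, with log2 fold changes of -0.57 (SE 0.54) in sh-Gpc4 and 0.29 (SE 0.52) in sh-Gpc2. Dcc was at 69.0, 67.4 and 66.5 CPM in sh-NT, 65.9, 64.2 and 75.3 in sh-Gpc4 and 64.4, 60.7 and 59.2 in sh-Gpc2. The sh-Gpc2 libraries of Dcc lay just below the controls, with a log2 fold change of -0.14 (SE 0.09, unadjusted p 0.159 in edgeR's test). Unc5d, an Unc5 receptor of upper-layer neurons and a binding partner of Flrt2, was at 300, 288 and 322 CPM in sh-NT, 254, 295 and 290 in sh-Gpc4 and 268, 242 and 305 in sh-Gpc2. Its groups overlapped, with log2 fold changes of -0.12 (-0.35 to 0.12) and -0.16 (-0.39 to 0.08). Unc5a, Unc5b and Unc5c, netrin receptors linked to repulsion, had log2 fold changes of -0.53 (SE 0.32), -0.08 (SE 0.21) and -0.32 (SE 0.20) in sh-Gpc4. All sh-Gpc4 libraries of Unc5a lay below the controls, library 1 by little (7.49, 2.95 and 5.80 CPM against 7.50, 8.22 and 7.73). In sh-Gpc2, Unc5a had -0.42, and Unc5c had -0.34 with all libraries below the controls.

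**Figure D3:**
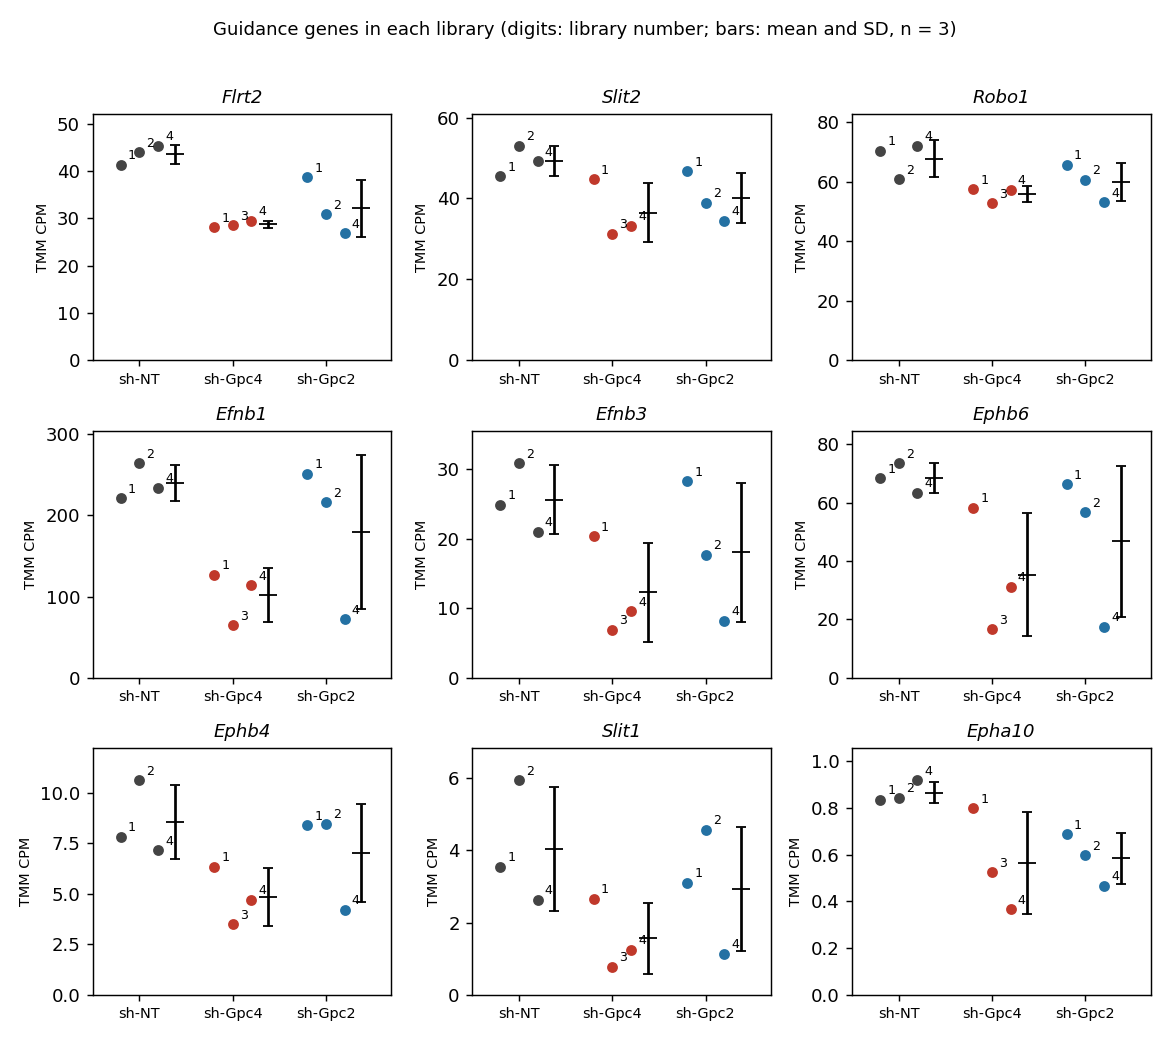
TMM-scaled CPM of 9 members in each library (points numbered by library, axes from 0), with the mean and SD of each group (n = 3) as bars. Flrt2 is at 28.1 to 29.5 CPM in sh-Gpc4 and 41.3 to 45.4 CPM in sh-NT, while Efnb3, Ephb6, Ephb4 and Slit1 are low in sh-Gpc4 libraries 3 and 4 and sh-Gpc2 library 4. Efnb1 is low in all sh-Gpc4 libraries (64.3 to 127 CPM, against 221 to 265 CPM in sh-NT) and in sh-Gpc2 library 4.

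In sh-Gpc2 against sh-NT, Flrt2 was the 1 member at an unadjusted p under 0.05 (2.94% of 34, against 2.56% of all genes tested), and no member passed the adjusted threshold (smallest adjusted p 0.968 in edgeR's test, 0% of all genes). DESeq2 and limma voom also called 0 members, with 1 each at an unadjusted p under 0.05 (2.16% and 2.34% of all genes). The log2 fold change of Flrt2 was -0.44 (SE 0.13, 95% interval -0.73 to -0.14), with an unadjusted p of 0.00858 in edgeR's test. It stayed negative over 18 alternatives, from -0.59 to -0.32. In 5 members (14.7%) all sh-Gpc2 libraries lay below all controls, against 4.11% of all genes, and in none above, against 3.59%. These were Dcc, Epha10, Epha2, Flrt2 and Unc5c. Of the 34, 28 (82.4%) had a negative log2 fold change, against 49.3% of all genes. The median was -0.17, beside 0.00 over all genes tested, and it was -0.09 without the 2 most distant libraries. Both knockdown groups are set against the same 3 controls, so their differences from sh-NT are not independent of each other.

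Set directly against each other, the 2 knockdown groups did not differ past the threshold in any member (smallest adjusted p 0.966 in edgeR's test, 0% of all genes). In edgeR 0 members had an unadjusted p under 0.05, against 2.89% of all genes, and DESeq2 and limma voom had 1 each (2.84% and 4.79% of all genes). The log2 fold change of sh-Gpc4 against sh-Gpc2 was -0.16 for Flrt2 (95% interval -0.46 to 0.14), -0.82 for Efnb1 (-1.72 to 0.08), -0.14 for Slit2 (-0.49 to 0.22) and -0.10 for Robo1 (-0.34 to 0.15). In 2 members (5.88%), Efna4 and Flrt1, all sh-Gpc4 libraries lay above all sh-Gpc2 libraries, against 3.5% of all genes. The Efnb1 value ran from -1.20 (without sh-Gpc2 library 4) to -0.50 (without sh-Gpc2 library 1) when single libraries were left out, and was -0.34 with the column number as a block. Without sh-Gpc2 library 4, 9 of 34 members had an unadjusted p under 0.05 (against 12.8% of all genes), and without the 2 most distant libraries 3 did, against 7.61%.

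Low values gathered in members of high GC content. Of the 15 tested members with a GC content of 55% or more, 14 had a negative log2 fold change in sh-Gpc4. Of all 4376 tested genes of that class, 3112 were negative. The median was -0.60 for the members, beside -0.23 for the class. In sh-Gpc2 the medians were -0.34 for these members and -0.11 for the class. The 10 members under 45% had a median of 0.02 in sh-Gpc4, beside 0.12 over 6443 genes, and the 9 between had 0.04. Relative to each gene's mean over 9 libraries, the GC-rich members had a median deviation of -0.87 log2 units in sh-Gpc4 library 3 and -0.60 in sh-Gpc2 library 4. All tested genes of the class had -0.37 and -0.23 in these libraries. In the other knockdown libraries the members' median was -0.06 to 0.36, and in the controls 0.33 to 0.44.

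For 10 of the 15 GC-rich members, sh-Gpc4 library 3 and sh-Gpc2 library 4 were the 2 lowest of all 9 libraries. These were Epha2, Ephb2, Ephb3, Ephb4, Ephb6, Efna3, Efnb1, Efnb3, Slit1 and Unc5a. This was not counted over all genes of the class, so it cannot be read as particular to the members. The median deviation of the class was also lowest in these 2 libraries (-0.37 and -0.23). With each library's GC trend removed, the class over all genes had a median of 0.08 in sh-Gpc4, with 1938 of 4376 negative. Its 15 members had a median of -0.27, with 11 negative. At an unadjusted p under 0.05, 7 members then remained, Epha10 (-0.27, from -0.64) being lost, against 11.4% of all genes. The part of base composition or RNA quality in the members' values was not tested beyond these figures.

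**Figure D4:**
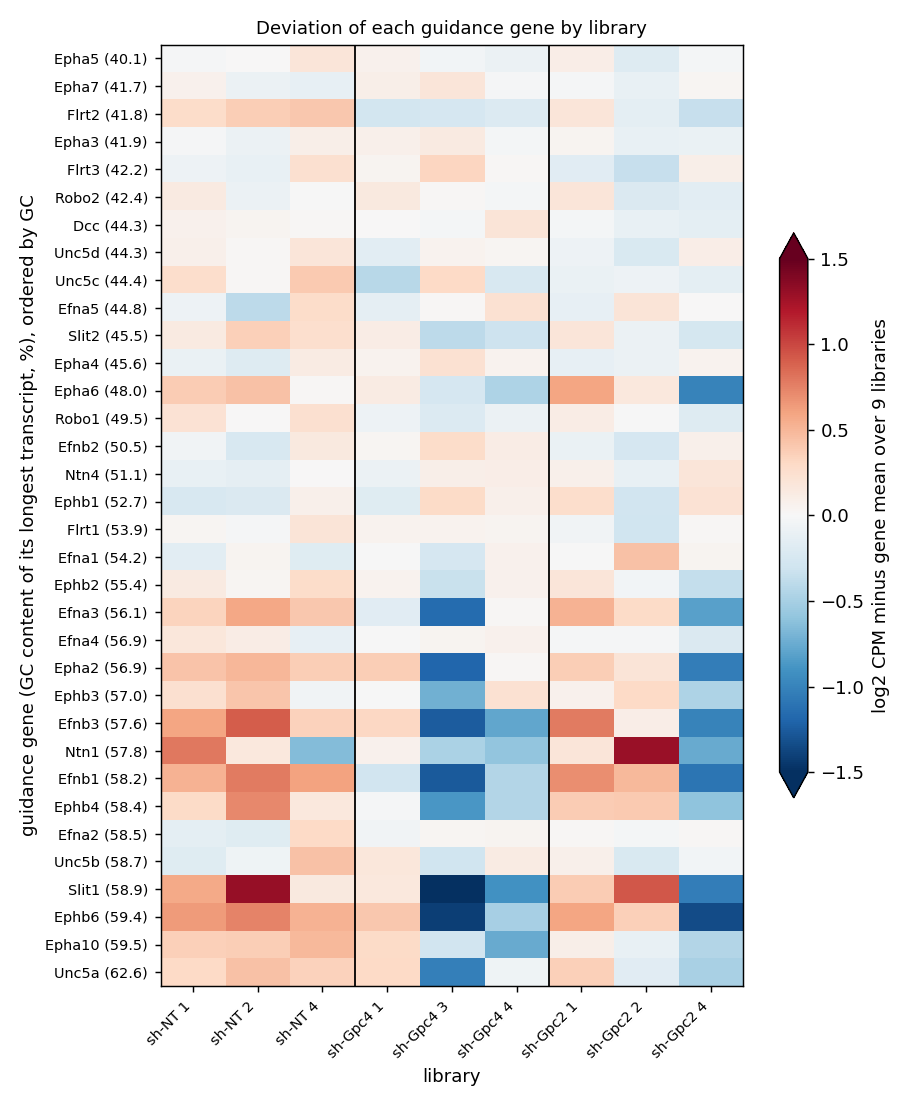
Deviation of each tested member (rows, ordered by GC content of its longest transcript in percent) from its mean over the 9 libraries (columns), in log2 CPM; red is higher and blue lower. The GC-rich rows are bluest in sh-Gpc4 library 3 and sh-Gpc2 library 4, where their median deviation is -0.87 and -0.60, and the Flrt2 row is blue in all sh-Gpc4 libraries.

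Of 65 other genes of these pathways, 63 were tested: family members outside the 37, signalling partners downstream of Eph, Robo and Dcc, and Flrt partners. None passed the adjusted threshold in edgeR's test. In sh-Gpc4, 0 were higher and 6 lower at an unadjusted p under 0.05 (9.52%, beside 9.57% of all genes), with a median log2 fold change of -0.05. Rac1, a small GTPase that acts on the actin skeleton below Robo and Dcc, was at 195, 217 and 234 CPM in sh-NT, 107, 84.7 and 154 in sh-Gpc4 and 220, 194 and 114 in sh-Gpc2. The sh-Gpc4 libraries lay below the controls, as did sh-Gpc2 libraries 2 and 4. Its log2 fold change in sh-Gpc4 was -0.90 (SE 0.26, unadjusted p 0.00655, adjusted p 0.488 in edgeR's test). The other 5 were Dscaml1 (-0.94), Arhgap39 (-0.62), Ptpn11 (-0.45), Ablim1 (-0.43) and Adgrl1 (-0.29), the last a latrophilin of the kind that binds Flrt proteins. In sh-Gpc2, 1 was lower, Ablim1, at -0.44, and none higher (1.59%). Between the knockdown groups, 1 was higher and 3 were lower in sh-Gpc4 than in sh-Gpc2 (6.35%, beside 2.89% of all genes), with a median log2 fold change of 0.03.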

How the data were processed

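Per the labels' protocols, RNA came from few cells and a low-input kit was used for the libraries. The table deposited by the authors gives unnormalized counts of reads for each gene in each library. The authors counted with featureCounts of Subread and named GRCm38 and mm10, per the submitters' processing notes. For the aligner, annotation release, tool versions and use of strand, nothing is stated (not given in the sources used here). Column names give the group, but their numbers do not match those of the sample titles.

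Symbols, exon lengths and GC content came from GENCODE M21 (51486 of 78275 IDs matched, all 37 members among them), and upstream sequences from RefSeq on GRCm38.p6. All 9 libraries were fitted with the quasi-likelihood test of edgeR 4.0.16 in R 4.3.3, with 1 coefficient per group, TMM scaling and the default filter on low counts. The Benjamini-Hochberg adjustment covered the 27773 tested genes, with a threshold of 0.05. Standard errors were derived from the log2 fold change and the F statistic. DESeq2 1.42.0 and limma 3.58.1 were alternatives. The GC trend was a spline with 6 degrees of freedom fitted to each library on the 22126 tested genes with a GC value. The edgeR step was tested on simulated counts. Libraries of a group differed by more than sampling noise in every pair, with a chi-square of 8.61 to 93.7 for each degree of freedom.

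The members, the pathway and marker lists and the tests were chosen with earlier results of these data known. Values in every library are given for members past a threshold in any tool or at an unadjusted p under 0.05, for the highest member per length of each family, and for further members with groups that did not overlap or of interest by role (Efna3, Dcc), which were added after their values were seen. The fits with the GC trend removed and without 2 libraries were chosen after seeing the data.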

Additional observations from a re-analysis of the deposited data

How the results depend on the processing

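Precision was limited by 3 libraries a group and, for members below 1 CPM, by counting error. Calls at the adjusted threshold were 0 among members in every alternative except the DESeq2 Wald test in sh-Gpc4, which called 46 genes and 1 member. In sh-Gpc4 against sh-NT, the 8 of 34 members at an unadjusted p under 0.05 (9.57% of all genes) became 15 by limma voom with sample weights (32.4%). Where a gene had to exceed 5 CPM in 3 libraries or more, they became 5 of the 22 members still tested (9.49%). They became 10 without sh-Gpc4 3 and sh-Gpc2 4 (9.77%) and 12 of 37 with no filter (9.01%). With single libraries left out the count ran from 3 (without sh-NT 2, sh-Gpc4 3 or sh-Gpc4 4; 4.16%, 3.85% and 6.91% of all genes) to 10 (without sh-Gpc4 1 or sh-Gpc2 4; 15.8% and 16.2%). In sh-Gpc2 against sh-NT, the 1 member (2.56% of all genes) became 2 in a fit of only the 2 groups (2.23%), 4 without sh-Gpc4 3 and sh-Gpc2 4 (2.34%), and 1 to 3 with single libraries left out (3 without sh-Gpc4 1, 2.43%). In sh-Gpc4 against sh-Gpc2, 0 (2.89% of all genes) became 1 by DESeq2 (2.84%), limma voom (4.79%) and with the GC trend removed (2.9%), 3 with no filter (3.42%) and 3 without the 2 libraries (7.61%), and 0 to 9 with single libraries left out (9 without sh-Gpc2 4, 12.8%). The causes were not tested.

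The replicate block by column number gave 4 members in sh-Gpc4 (3.62% of all genes), 6 in sh-Gpc2 (5.21%) and 0 between the knockdown groups (1.6%). It moved sh-Gpc4 values of Slit1 to -0.70, Ephb4 to -0.47, Ephb6 to -0.60 and Efnb1 to -0.88. Same-numbered libraries had correlated deviations of -0.101 to 0.682 over 7 pairs. Not every pair was over 0.1, and the main fit did not use the numbers as pairs. Libraries of different numbers had correlations of -0.871 to 0.831, a wider range, so these correlations cannot decide whether the numbers pair the libraries. A shared origin was not tested otherwise. Under the block, log2 fold changes turned to -0.022 for Robo2, -0.067 for Flrt3, -0.0087 for Epha3 and 0.011 for Efna4 in sh-Gpc4 against sh-NT, and to 0.14 for Ephb6 and -0.055 for Unc5d between the knockdown groups.

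Among the members followed under every alternative, other changes of sign were in those with values near 0. In sh-Gpc4 against sh-NT, Robo2 was at -0.026 by limma voom and -0.077 with the GC trend removed, and -0.029 to 0.089 with single libraries left out. With the GC trend removed, Flrt3 was at -0.0067, Epha3 at -0.049 and Efna4 at 0.29. Flrt3 was at -0.0029 without the 2 libraries, and Efna4 at -0.12 to 0.030 with single libraries left out. In sh-Gpc2 against sh-NT, Efna4 was at 0.0094 with the GC trend removed and Robo2 at -0.21 to 0.0017 with single libraries left out. In sh-Gpc4 against sh-Gpc2, Ntn4 was at 0.036 by limma voom, 0.019 with the GC trend removed, 0.032 without the 2 libraries and -0.096 to 0.052 with single libraries left out. Unc5d was at -0.0045 and Epha10 at 0.13 with the GC trend removed, and at -0.037 to 0.13 and -0.39 to 0.16 with single libraries left out. Further members, not followed under every alternative, also changed sign with the GC trend removed. Among them, Ephb2 went from -0.21 to 0.011 and Unc5b from -0.077 to 0.27 in sh-Gpc4 against sh-NT. In sh-Gpc2 against sh-NT, Unc5b went from -0.15 to 0.036. Per kilobase of the longest transcript instead of merged exons, levels in sh-NT were 109 CPM per kb for Epha3, 90.5 for Robo2, 73.7 for Efnb1, 64.4 for Epha5, 61.8 for Flrt3 and 4.95 for Slit2.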
